A study of Mus musculus with 4 samples.

Results

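The Hedgehog receptors, coreceptors and Gli factors were followed here as 10 genes, Shh, Ptch1, Smo, Gli1, Gli2, Gli3, Gas1, Sufu, Hhip and Cdon. Every probe set whose annotation gives exactly 1 of these symbols was kept, which gave 17 of the 22690 probe sets on the array, with at least 1 for each gene. RNA came from mouse P19 embryonal carcinoma cells, a teratocarcinoma-derived line that forms neural cells after aggregation with retinoic acid. The control group was unmodified P19 cells and the other group was P19 cells that constitutively express human LIN28A, which binds precursors of the let-7 microRNAs and keeps them from being processed. Per the labels, both lines were induced by aggregation in 5e-07 M all-trans retinoic acid for 4 days, and 2 arrays numbered 1 and 2 were made for each line. The promoter that drives LIN28A, and whether the line is 1 clone or a pool, are not given in these sources, and the level of the human transcript was not analysed here. The comparison asks how these transcripts differ in differentiating P19 cells when LIN28A is kept on.

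In the Hedgehog pathway a secreted ligand such as Sonic hedgehog binds the receptor Patched, which otherwise holds the membrane protein Smoothened inactive. Freed Smoothened acts at the primary cilium and releases the Gli transcription factors from Sufu, so that Gli activators form and Gli repressors are lost. In the neural tube the ligand spreads from the notochord and floor plate and sets ventral cell fates, while dorsal fates form where it is low, and in many neural progenitors the pathway also drives division.

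In LIN28A cells Smo and Gli2, the signal transducer and the main Gli activator, read higher than in control cells at each of their probe sets in both numbers, by 0.34 to 0.82 on the log2(value + 16) scale. Gas1, a coreceptor, read lower at its brightest probe set by 0.40 and 0.91 within numbers 1 and 2, and Gli3, the main Gli repressor, read lower by 0.64 and 0.56 at intensities near the low end of the array. Ptch1 differed in opposite directions in the 2 numbers, and Sufu differed by 0.02 and 0.18. Shh, Gli1 and Hhip stayed under an intensity of 16 in every array. None of these differences passed limma's test over all probe sets.

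The promoters of Smo, Gli2, Gas1 and Gli3 are shown as those of the transducer, activator, coreceptor and repressor genes just described, which lay on 1 side of the control in both numbers, Smo and Gli2 above it and Gas1 (at its brighter probe sets) and Gli3 below it. They were chosen after the values were seen, and leave out Cdon and Sufu, which also lay on 1 side but by -0.06 and 0.02 in 1 of the numbers. Each is the RefSeq sequence of build GRCm38.p6 from 250 bases before to 50 after the gene's start, printed 5' to 3' on the gene's strand. Capitals mark a GC box (GGGCGG or its reverse complement CCGCCC) or a CCAAT box (CCAAT or its reverse complement ATTGG).
Smo, chr6:29735247-29735546, plus strand: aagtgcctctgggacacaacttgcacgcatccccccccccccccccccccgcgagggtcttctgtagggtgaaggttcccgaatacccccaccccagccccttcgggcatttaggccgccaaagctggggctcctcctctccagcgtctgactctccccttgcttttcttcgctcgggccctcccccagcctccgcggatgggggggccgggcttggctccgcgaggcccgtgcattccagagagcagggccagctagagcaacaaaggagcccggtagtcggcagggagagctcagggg
Gli2, chr1:119053570-119053869, minus strand: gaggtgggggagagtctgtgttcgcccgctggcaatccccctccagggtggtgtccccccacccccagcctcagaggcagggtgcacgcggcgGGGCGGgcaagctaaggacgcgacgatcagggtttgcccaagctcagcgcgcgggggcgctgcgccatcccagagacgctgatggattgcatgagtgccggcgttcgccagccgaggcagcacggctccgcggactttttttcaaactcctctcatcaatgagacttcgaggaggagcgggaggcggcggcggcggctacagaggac
Gas1, chr13:60177486-60177785, minus strand: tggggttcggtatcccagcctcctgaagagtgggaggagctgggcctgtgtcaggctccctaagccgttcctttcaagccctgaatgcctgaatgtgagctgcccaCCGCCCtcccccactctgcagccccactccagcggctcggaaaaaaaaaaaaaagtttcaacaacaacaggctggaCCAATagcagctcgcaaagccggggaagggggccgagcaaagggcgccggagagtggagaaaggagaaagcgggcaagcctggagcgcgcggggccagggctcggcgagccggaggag
Gli3, chr13:15463473-15463772, plus strand: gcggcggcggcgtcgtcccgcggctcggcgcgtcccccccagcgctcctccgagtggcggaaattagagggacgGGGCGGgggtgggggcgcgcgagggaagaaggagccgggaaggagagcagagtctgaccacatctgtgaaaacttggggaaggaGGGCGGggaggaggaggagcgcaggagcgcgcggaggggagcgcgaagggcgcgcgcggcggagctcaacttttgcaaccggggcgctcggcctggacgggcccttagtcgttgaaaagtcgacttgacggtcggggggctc

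Of the 10 genes, 8 had a promoter of 300 bases in the RefSeq table, all but Shh and Gli1. Both strands were searched for a Gli site (GACCACCCA), a nuclear receptor half-site (AGGTCA), a GC box and a CCAAT box, none of which overlaps another in the printed windows. The Gli2 window held 1 GC box, the Gli3 window 2, and the Gas1 window 1 GC box and 1 CCAAT box. The Smo window held none of the 4 motifs. None of the 8 windows held these letters of a Gli site or of the half-site, which 0.253% and 16.3% of 32851 windows of the same length held, against 35.7% for the GC box and 37.4% for the CCAAT box. A match describes letters only and is not a binding site.

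The deposited intensities had medians of 29.0 to 38.6 per array, and 35.7% to 42.3% of probe sets other than controls lay under 16 in an array. The arrays carry no detection calls, so a value under 16 cannot be read as present or absent. Control 1 stood apart in some quality values, with an 18S ribosomal RNA signal of 677 against 136 in LIN28A 1 and 9.20 and 11.3 in control 2 and LIN28A 2, and a beta-actin 3' to 5' ratio of 4.71 against 2.76 to 3.37. The 18S signal was also higher in both number 1 arrays than in both number 2 arrays. The Gapdh 3' to 5' ratio went by number too, at 1.15 and 1.12 in the number 1 arrays and 0.78 and 0.82 in the number 2 arrays, control first. The mean difference between the lines was larger than that between the numbers for 33.7% of the 15838 probe sets tested. The summed intensity of 14 neuronal genes was 4365.0 and 7084.5 in control 1 and 2 and 2299 and 4999.0 in LIN28A 1 and 2, so the lines overlapped, although LIN28A was the lower within each number. Of the 14, 3 were lower in both LIN28A arrays and 0 higher, against 16.6% and 11.5% of all genes tested. The sum over 10 neural progenitor genes was 9293 and 8942 in control arrays, against 8733 and 6171 with LIN28A. Vim made up the largest part of each sum, at 5696 and 3345 in control arrays, against 4268 and 2269 with LIN28A, so the sums mostly follow few genes. Of the 10, 1 (Hes5) was higher in both LIN28A arrays and 1 (Sox2) lower, against 11.5% and 16.6% of all genes tested. Of 9 genes of undifferentiated embryonal carcinoma cells, 3 lay under 16 in every array, and their sum was 200 and 424 in control arrays, against 276 and 951 with LIN28A, where Pou5f1, which encodes Oct4, read 30.3, 374, 28.7 and 775 in control 1, control 2, LIN28A 1 and LIN28A 2. In the same order Sall4, a pluripotency factor gene singled out after its values were seen, read 16.4, 2.10, 194 and 83.1, so Pou5f1 separated the numbers and Sall4 the lines. Of these 9 genes, 2 (Sall4 and Utf1) were higher in both LIN28A arrays and 2 (Dppa4 and Esrrb) lower, against 11.5% and 16.6% of all genes tested. Utf1, Dppa4 and Esrrb read at most 18.5 in any array, and Dppa4 was too low to be tested. The sums were 198 to 380 in control and 365 to 559 in LIN28A cells for 12 fibroblast and smooth muscle genes, 63.0 to 113 and 55.6 to 65.2 for 8 endoderm genes, and 62.0 to 98.7 and 55.3 to 85.7 for 7 mesoderm genes. Of these, 6, 4 and 4 genes lay under 16 in every array, and no gene of any marker list was at 0 in every array. In the same list order, 3, 0 and 0 genes were higher in both LIN28A arrays and 1, 2 and 1 lower. These counts include genes too low to be tested, and the shares of all genes tested were 11.5% and 16.6%. The part of these markers in the differences given here was not tested. These are bulk RNA samples, so fewer cells of a type and less RNA per cell cannot be told apart.

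Of the 17 probe sets, 11 of 7 genes passed the filter on low values and were tested. The remaining 6, which include every probe set of Shh, Gli1 and Hhip, had no value above 15.2 in any array. Among the 6, the Ptch1 and Sufu probe sets had both LIN28A arrays below both control arrays at these low values. The share of all untested probe sets that did so is not given, so nothing is read from this. Of the 11 tested, 3 had both LIN28A arrays above both control arrays, against 10.0% of all probe sets tested, and 3 had both below, against 15.5%. By name these were Smo and both probe sets of Gli2 above, and Gas1, Gli3 and Cdon below, at 1 probe set each. A difference of at least 0.5 in the same direction in both numbers was seen at 1 of 11 probe sets in each direction, Smo upwards and Gli3 downwards, against 1.38% and 2.65% of all probe sets tested. With no minimum size, 5 of the 11 were above the control in both numbers and 4 below, against 24.2% and 33.3% of all probe sets tested. At an adjusted p under 0.05 limma called 0 of the 11, and over all probe sets tested 0% in either direction. At an unadjusted p under 0.05 it called 0 of the 11, against 0.442% of all probe sets higher and 1.21% lower. With 2 arrays a group the smallest two-sided exact permutation p of a single value is 0.333, so none is given.

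**Figure D1:**
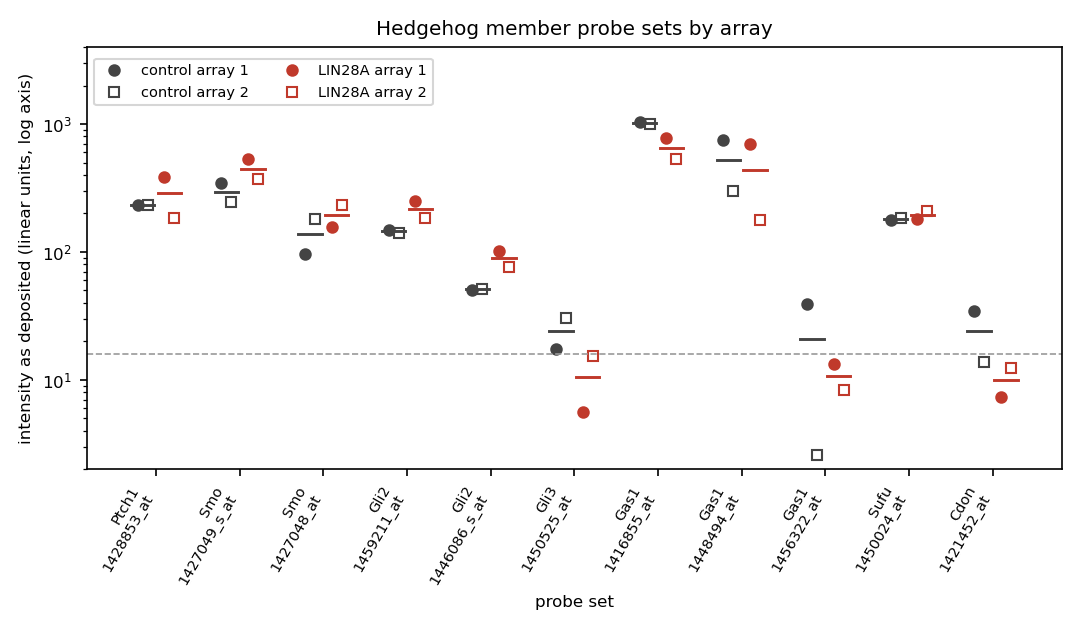
Intensity of each tested Hedgehog probe set on each array, in deposited linear units on a log axis. Filled circles are arrays numbered 1, open squares arrays numbered 2, grey is control, red is LIN28A, short bars are means of 2 arrays, and the dashed line marks 16. Both Gli2 probe sets and the brighter Smo probe set have both red points above both grey ones, and the brightest Gas1 probe set has both below.

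The ligand was at the low end of the array. Shh, which encodes Sonic hedgehog, read 1.5 and 2.1 in control 1 and 2 and 0.70 and 3.4 in LIN28A 1 and 2. The 4 values overlapped between the lines, and no fold is given for a gene this low.

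Ptch1 encodes the receptor that binds the ligand and is itself a transcriptional target of the pathway. Its brighter probe set, 1428853_at, read 231 and 233 in control 1 and 2 and 388 and 185 in LIN28A 1 and 2. The control arrays were nearly equal, while 1 LIN28A array lay above them and the other below. The difference was 0.71 within number 1 and -0.31 within number 2, with a mean of 0.20 ± 0.40 (SE, n = 2 arrays a group) and a 95% interval of -0.79 to 1.19. Its direction rested on LIN28A 1, since without that array the difference was -0.30. The other probe set, 1450824_at, read 13.5 and 0.80 in control arrays, against 0.50 and 0.30 with LIN28A, was under 16 throughout and was not tested.

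The coreceptors bind the ligand beside Patched and raise the response to it. Gas1, a membrane-anchored protein named for its expression in growth-arrested cells, had 3 probe sets. The brightest, 1416855_at, read 1037 and 1006 in control 1 and 2 and 780 and 529 in LIN28A 1 and 2. Both LIN28A arrays lay below both control arrays, and the control arrays differed from each other by less than the LIN28A arrays did. The mean was 1021 ± 22.0 (SD, n = 2) for the control arrays and 654 ± 178 (SD, n = 2) for LIN28A. The difference was -0.40 and -0.91 within numbers 1 and 2, or -0.66 ± 0.32 (SE) with a 95% interval of -1.44 to 0.13 and a limma adjusted p of 1.0, and it ran from -0.93 to -0.38 without 1 array.

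The second Gas1 probe set, 1448494_at, read 752 and 300.1 in control 1 and 2 and 698 and 179 in LIN28A 1 and 2. Here the arrays separated by number, with a mean of -1.58 from number 1 to number 2, and the lines overlapped. LIN28A minus control was -0.11 within number 1 and -0.70 within number 2, which gave -0.40 ± 0.72 (SE). The third, 1456322_at, read 39.4 and 2.60 in control arrays, against 13.2 and 8.30 with LIN28A, and its difference was -0.92 in number 1 and 0.39 in number 2. The 2 brighter probe sets thus lay below the control in both numbers, and the dimmest did so in number 1 only.

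Cdon, an immunoglobulin-family coreceptor that also promotes muscle differentiation, had 1 probe set, which read 34.4 and 13.7 in control 1 and 2 and 7.40 and 12.5 in LIN28A 1 and 2. Both LIN28A arrays lay below both control arrays, but only control 1 exceeded 16. The difference was -1.11 within number 1 and -0.06 within number 2, and its mean of -0.58 ± 0.36 (SE) was -0.20 without control replicate 1.

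Hhip, an inhibitor that sequesters the ligand at the membrane, read between 3.90 and 10.5 over both of its probe sets and all arrays. Its probe set 1438083_at read 10.5 and 3.90 in control arrays, against 6.6 and 5.4 with LIN28A, and 1421426_at read 4.0 and 7.90 in control arrays, against 4.30 and 7.90 with LIN28A. The lines overlapped at both.

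Smo encodes Smoothened, the membrane protein that carries the signal inwards. Its brighter probe set, 1427049_s_at, read 346 and 245 in control 1 and 2 and 529 and 370 in LIN28A 1 and 2. Both LIN28A values exceeded both control values, with the number 2 array the lower of each line. The difference was 0.59 within number 1 and 0.56 within number 2, nearly the same size, with a mean of 0.58 ± 0.34 (SE, n = 2 arrays a group), a 95% interval of -0.26 to 1.41 and a limma adjusted p of 1.0. Without 1 array it ran from 0.33 to 0.83.

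The second Smo probe set, 1427048_at, is annotated to the same source sequence, so it is not independent evidence on the gene. It read 96.3 and 180 in control 1 and 2 and 157 and 232 in LIN28A 1 and 2, so the number 2 array was the higher one of each line, the reverse of the first probe set. The lines overlapped. Within number 1 the difference was 0.62 and within number 2 it was 0.34. Without control replicate 2 the mean of 0.48 ± 0.39 (SE) became 0.88, and without control replicate 1 it became 0.08.

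Sufu, which holds Gli proteins in the cytoplasm and restrains them, read 178 and 184 in control 1 and 2 and 181 and 210 in LIN28A 1 and 2 at 1450024_at. The lines overlapped, and the difference of 0.10 ± 0.28 (SE) had a 95% interval of -0.59 to 0.79, which does not show that the lines were alike. Its other probe set, 1420848_at, is annotated to the same source sequence, and read 5.90 and 15.2 in control arrays, against 5.50 and 0.80 with LIN28A, too low to be tested.

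Among the Gli factors, Gli1, an activator that is switched on by the pathway and serves as a common readout of it, read 4.30 and 2.30 in control 1 and 2 and 0.90 and 2.50 in LIN28A 1 and 2, and was not tested. Gli2, which transmits most of the activating signal, read 149.8 and 140.1 in control arrays, against 248 and 184 with LIN28A at 1459211_at. It read 50.6 and 51.7 in control arrays, against 101 and 77.0 with LIN28A at 1446086_s_at. At both probe sets the control arrays were close together, both LIN28A arrays lay above them, and LIN28A 1 was the higher of the LIN28A arrays.

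The Gli2 differences were 0.67 and 0.36 within numbers 1 and 2 at the first probe set and 0.82 and 0.46 at the second. Their means were 0.52 ± 0.30 and 0.64 ± 0.29 (SE, n = 2 arrays a group), with 95% intervals of -0.22 to 1.25 and -0.08 to 1.36 and limma adjusted p-values of 1.0. The 2 probe sets are annotated to 1 source sequence and do not count as separate evidence. Without 1 array their differences ran from 0.32 to 0.72 and from 0.47 to 0.81.

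Gli3, which is cut into the main repressor when no ligand is present, read 17.6 and 30.4 in control 1 and 2 and 5.60 and 15.4 in LIN28A 1 and 2 at its single probe set. Both LIN28A arrays lay below both control arrays and under 16, and the number 2 array was the higher in each line. The difference was -0.64 within number 1 and -0.56 within number 2. The mean of -0.60 ± 0.34 (SE) had a 95% interval of -1.45 to 0.25 and a limma adjusted p of 1.0, and ran from -0.87 without LIN28A replicate 2 to -0.33 without LIN28A replicate 1. Because the values are low, this size depends on the pseudocount, and was -1.22 with a pseudocount of 1 and -0.24 with 64.

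**Figure D2:**
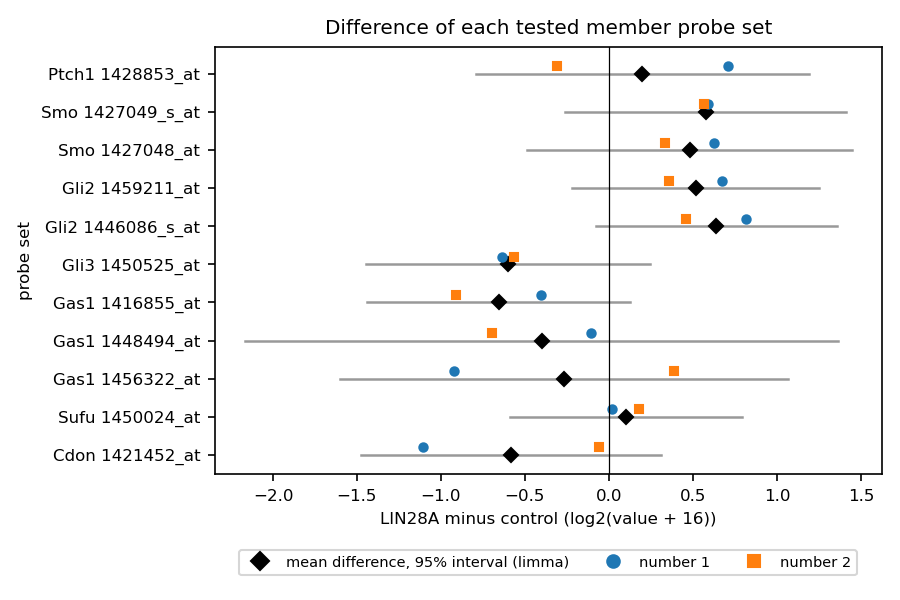
LIN28A minus control for each tested probe set on the log2(value + 16) scale. Diamonds and lines are the mean difference and its 95% interval from limma with 2 arrays a group, circles the difference within number 1 and squares that within number 2. Each interval includes 0, and both numbers lie on 1 side of 0 for all but Ptch1 and the dimmest Gas1 probe set, with Cdon at -0.06 in number 2 and Sufu at 0.02 in number 1.

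The median difference over all probe sets tested was -0.05 with the deposited scaling, 0.01 under quantile normalization and 0.08 when each array was centred on its median. After subtracting those medians, Smo at 1427049_s_at differed by 0.63, 0.53 and 0.63 under the 3 scalings, Gli2 at 1459211_at by 0.57, 0.49 and 0.57, Gas1 at 1416855_at by -0.61, -0.73 and -0.61, and Gli3 by -0.55, -0.42 and -0.55. Median centring shifts each array by a constant, so after this subtraction its values repeat those of the deposited scaling. Only quantile normalization is a separate check there. No tested probe set changed direction under a scaling. Under quantile normalization only 1 of the 11, the brightest Gas1 probe set, was lower in both arrays. The 4 that were then higher in both arrays were both Gli2, Smo 1427048_at and Sufu 1450024_at, while the lines overlapped at the brighter Smo probe set. The share of all probe sets is given only for the deposited scaling, so these counts have no background beside them.

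For 6 of the 11 tested probe sets the mean difference between the lines was larger than that between the numbers, against the 33.7% of all probe sets given above. These were the brighter Smo, both Gli2, the Gli3, the brightest Gas1 and the Cdon probe sets. At the second Smo probe set the numbers differed by 0.66, at Ptch1 by -0.50 and at the other Gas1 probe sets by -1.58 and -0.92.

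**Figure D3:**
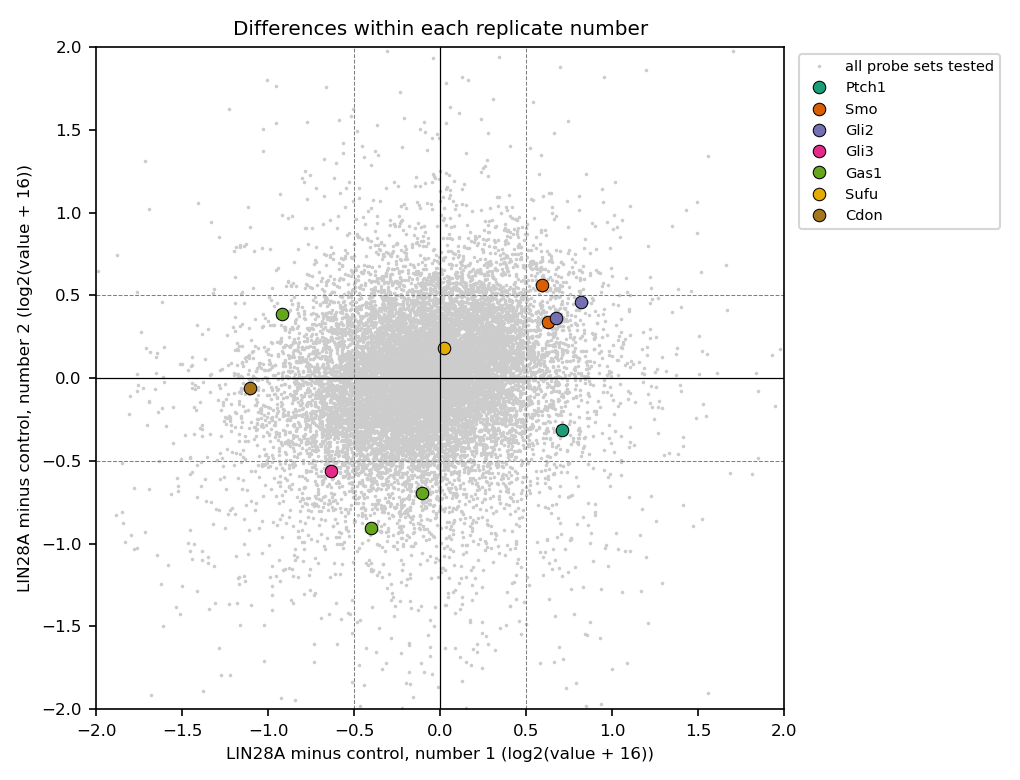
LIN28A minus control within number 2 against that within number 1, on the log2(value + 16) scale, for all probe sets tested (grey) and the Hedgehog probe sets (coloured by gene). Dashed lines mark 0.5 in each direction, and 83 probe sets lie outside the plotted range of 2. The Smo and Gli2 points lie at upper right, Gli3 and 2 Gas1 points at lower left, Ptch1 at lower right and Cdon at left near 0 in number 2.

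The probe sets whose profile over the 4 arrays was nearest to Ptch1 and Gli3 were found by Euclidean distance between log2 values, each centred on its own mean, among 14561 tested probe sets with 1 gene symbol. For Ptch1 they were Sox11, a transcription factor gene of neural progenitors and young neurons, at a distance of 0.080, then H2aj at 0.088 and Wwc1 at 0.089. Sox11 read 365 and 361 in control arrays, against 572 and 299 with LIN28A, so it shares with Ptch1 the high LIN28A 1 and the low LIN28A 2. For Gli3 they were Aldh6a1, a mitochondrial enzyme gene of valine breakdown, at 0.036, the transferrin receptor gene Tfrc at 0.065 and the junctophilin gene Jph3 at 0.065. With 4 arrays such distances are a description only.

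The rest of the pathway was read through lists taken from general knowledge, each gene by its brightest tested probe set. Over 8930 genes tested, 11.5% had both LIN28A arrays above both control arrays and 16.6% had both below, and the median difference was -0.04. In none of the 6 lists did a gene pass the limma test in either direction. Of the 106 genes tested in any list, 1 had an unadjusted limma p under 0.05 upwards (Ccnd1) and 2 downwards (Ift88 and Lhx5). Over all 8930 genes tested these counts were 44 and 120.

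Of 24 genes for other ligands, ligand release and other receptors, 16 had a probe set and 12 were tested. In both arrays 1 of these was higher and 4 were lower, and the median difference was -0.08 (-0.18 in number 1 and 0.14 in number 2), which was 0.05 under median centring and ran from -0.20 to 0.19 without 1 array, highest without LIN28A replicate 1. Ext1 and Ext2, the heparan sulfate polymerase genes whose product helps Hedgehog spread, lay on opposite sides. Ext1 read 312 and 338 in control 1 and 2 and 214.5 and 243 in LIN28A 1 and 2, a difference of -0.48 ± 0.28 (SE). Ext2 read 110.3 and 122 in control arrays, against 142 and 161 with LIN28A, a difference of 0.34 ± 0.28 (SE). Scube2, which helps release the ligand, read 88.0 and 262.5 in control arrays, against 76.1 and 61.2 with LIN28A, so its difference of -1.01 came mostly from number 2 (-1.85, against -0.18 in number 1). Gpc4, a cell surface heparan sulfate proteoglycan gene, differed by 0.45 and 0.91 in the 2 numbers, with overlapping lines.

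Of 41 genes of intracellular signalling, 27 had a probe set and 26 were tested, with 5 higher in both arrays, 3 lower and a median of 0.04 (0.09 in number 1 and -0.05 in number 2), which ran from -0.08 (control replicate 1 left out) to 0.17 (LIN28A replicate 1 left out) and was -0.0032 after quantile normalization. The casein kinase gene Csnk1g2 differed by 0.43, the corepressor gene Sin3a by 0.30, the scaffold gene Dlg5 by -0.34 and Prkar1a, a regulatory subunit gene of protein kinase A, by -0.43. At these probe sets all 4 had overlapping lines, and number 2 was the higher in each line. Sin3a differed by 0.50 and 0.24 at its other probe sets and Prkar1a by -0.21 at its other one. The lines did not overlap at the first of these for Sin3a or at that for Prkar1a, and number 1 was the higher in each line there.

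Of 45 genes of the primary cilium and its transport, 25 had a probe set and 23 were tested, with 1 higher in both arrays, 6 lower and a median of -0.10 (-0.17 and -0.10 in the 2 numbers), which was 0.03 under median centring. The farthest from 0 was Ift88, a carrier subunit of intraflagellar transport that cilia need in order to form. It read 89.0 and 86.5 in control 1 and 2 and 39.5 and 46.7 in LIN28A 1 and 2. Both LIN28A arrays lay below both control arrays, by 0.92 and 0.71 within numbers 1 and 2 (-0.81 ± 0.28 SE, 95% interval -1.50 to -0.13, limma adjusted p of 1.0). The motor genes Kifap3 and Kif3b differed by -0.25 and 0.38, with Kif3b at -0.24, -0.06 and -0.08 at its other probe sets, and the transition zone gene Tctn2 by -0.21.

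Of 35 genes that Hedgehog signalling can induce, 31 had a probe set, 16 of which lay under 16 in every array, and 18 were tested. In both arrays 1 of these was higher and 3 were lower, and the median was 0.06 (0.04 and 0.06 in the 2 numbers), or -0.03 without LIN28A replicate 2. The cyclin D1 gene Ccnd1 read 175 and 249.8 in control 1 and 2 and 481 and 370.5 in LIN28A 1 and 2, a difference of 0.96 ± 0.33 (SE; 95% interval 0.16 to 1.76, limma adjusted p of 1.0), and its other probe sets differed by 1.93 and 0.14 in numbers 1 and 2 at one, where the lines overlapped, and by 1.67 and 0.41 at the other, where they did not. The cyclin E1 gene Ccne1 differed by 0.61 and 0.86 in the 2 numbers, with overlapping lines. Ntn1, which encodes the floor plate guidance cue netrin-1, read 442.5 and 606 in control arrays, against 290.5 and 359 with LIN28A (-0.66 ± 0.31 SE). Rab34, a small GTPase gene needed for cilia, read 676 and 723 in control arrays, against 521.5 and 421 with LIN28A (-0.56 ± 0.29 SE). The cyclin D2 gene Ccnd2, singled out after its values were seen, read 2269 and 2270.4 in control arrays, against 3131.5 and 1988 with LIN28A, above the control in number 1 and below it in number 2. Each of these genes is also known to respond to inputs other than Hedgehog.

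Of 27 ventral neural tube genes, 21 had a probe set, 12 of which lay under 16 in every array, and 12 were tested. The list had 1 higher in both arrays, 2 lower and a median of -0.11 (-0.04 and -0.12 in the 2 numbers), which was 0.06 under quantile normalization, 0.02 under median centring and -0.21 without control replicate 1. Foxa1, a forkhead factor gene, read 69.7 and 65.8 in control arrays, against 89.8 and 247 with LIN28A, so its difference of 0.99 came mostly from LIN28A 2. Sim1, Nkx2-9 and Lhx3, which mark ventral interneurons and progenitors, differed by -0.37, 0.26 and -0.45 at values of at most 23.0. The other Sim1 probe set differed by -0.54 in number 1 and 0.09 in number 2. The other Lhx3 probe set, too low to be tested, differed by -0.74 and 0.28. The genes that the ligand is best known to switch on were singled out after their values were seen. Foxa2, of the floor plate, read at most 8.60, Nkx2-2 at most 14.9, Nkx6-1 at most 4.90 and Olig2 at most 13.2 in any array, and none of them was tested.

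Of 28 dorsal neural tube genes, 23 had a probe set and 17 were tested, with 1 higher in both arrays, 4 lower and a median of -0.11 (-0.17 and -0.16 in the 2 numbers), or 0.02 under median centring, and from -0.52 without LIN28A replicate 1 to -0.04 without LIN28A replicate 2. The LIM homeobox genes Lhx1 and Lhx5, which mark interneurons, and the dorsal midline signal Wnt3a were among the lower ones. Lhx1 read 116 and 148 in control 1 and 2 and 78.8 and 80.9 in LIN28A 1 and 2, and its other probe set differed by -0.60. Lhx5 read 32.8 and 53.1 in control arrays, against 16.5 and 14.4 with LIN28A (-0.89 ± 0.31 SE), Wnt3a 20.5 and 11.0 in control arrays, against 10.6 and 3.60 with LIN28A, and the signal gene Bmp6 differed by -0.34 with overlapping lines. The summed level of the neuronal markers given above was lower within each number as well, although the lines overlapped. Its part in the differences of the dorsal genes was not tested.

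**Figure D4:**
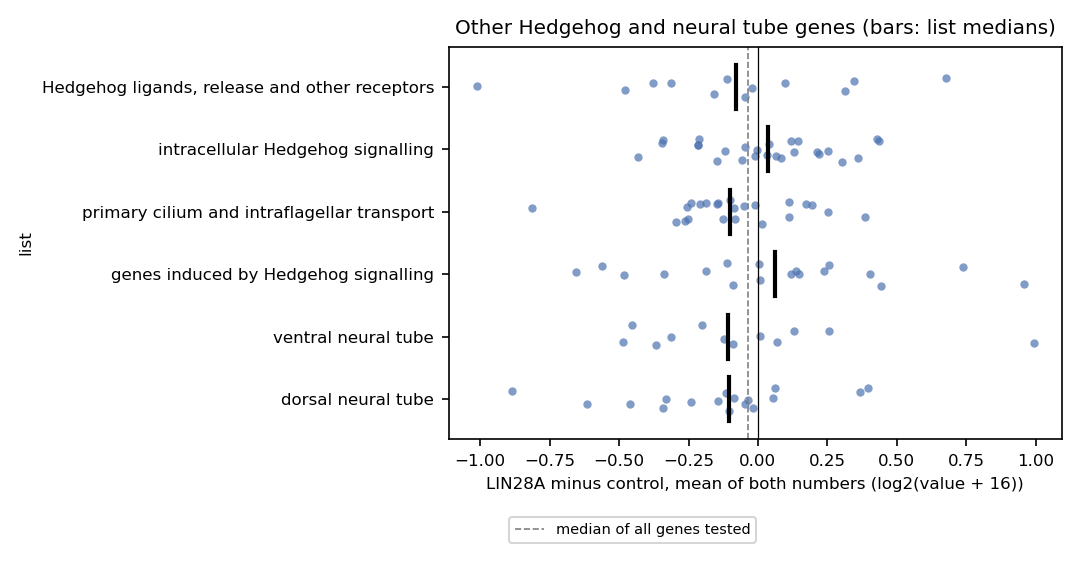
LIN28A minus control, as the mean of both numbers on the log2(value + 16) scale, for the tested genes of each list. Points are genes at their brightest tested probe set, black bars are list medians and the dashed line is the median of all genes tested, -0.04. List medians lie between -0.11 and 0.06, and Scube2, Ift88 and Lhx5 on the left and Foxa1 and Ccnd1 on the right lie farthest from them.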

How the data were processed

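Per the labels' protocols, cDNA was primed with oligo(dT) on total RNA, biotin-labelled cRNA was transcribed from it, and Affymetrix arrays of 1 colour were hybridised. For 4 arrays the authors deposited linear intensity values, 1 per probe set. With 2% trimmed at each end, every array had a mean of 150.1, so the values were taken as scaled. The sources used here do not name the software. The 64 control probe sets were left out of tests. Of the others, 20380 carried 1 gene symbol, 691 several and 1555 none, and a current gene table held 20351 of the gene identifiers, with 0 symbols changed.

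Values were turned into log2(value + 16), a scale on which changes of low genes come out too small. Probe sets with a mean under the 30th percentile (8.04 on the linear scale) were dropped, and 15838 remained. The lines were compared with limma 3.58.1 in R 4.3.3 (lmFit, eBayes, no block), with Benjamini-Hochberg adjustment over all of them and a threshold of 0.05. The test was also run on simulated data. No result of that run is given here, so it says nothing of the test's power or error rate on these arrays. Differences within a number have no test. With no block, the SEs, intervals and p-values also take in the difference between the numbers. The labels call the arrays repeats without naming separate cultures, so p-values rest on the spread of these arrays alone, which may be technical, and the number of arrays limits the precision.

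The members and lists were chosen with earlier results of these data known. From each list the text names the 4 genes with the largest differences of 1 direction in both numbers, ranked by the smaller one. Scaling, pseudocount, filter, the block, eBayes trend and leaving out each array were tried as alternatives.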

Additional observations from a re-analysis of the deposited data

How the results depend on the processing

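The count of probe sets called over the whole array was 0 in each direction under the alternatives except the replicate block, which called 1 higher, and the block with quantile normalization, which called 3 higher. At an unadjusted p under 0.05 the main test gave 70 higher and 192 lower and the replicate block 468 and 890. Arrays of 1 number deviated from their group means together (r = 0.62 across probe sets), but the labels give them only a shared number, so the block was not the main design. With the block the lowest limma adjusted p of a tested Hedgehog probe set was 0.57. At an unadjusted limma p under 0.05 the block called 3 of the 11 upwards, against 468 of all 15838 probe sets tested. These were Smo 1427049_s_at and both Gli2, which are annotated to 1 source sequence. Downwards it called 2 of the 11 (Gli3 and Gas1 1416855_at), against 890 of all 15838.

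Hedgehog probe sets higher in both arrays numbered 3, against 5 under median centring. Those lower in both arrays numbered 3, against 1 under quantile normalization, with or without the block. There was also 1 when the filter stood at the 50th percentile, where fewer probe sets were tested. Such counts are not given without 1 array, since 1 line then has only 1 array and the counts cannot fall. Shares of all probe sets higher or lower in both arrays are given only for the main setting, so the changed counts have no background. The balance over the whole array moved too. At an unadjusted limma p under 0.05 there were 124 higher and 167 lower under quantile normalization, and 167 and 107 under median centring. Of 140 alternative values of single probe sets, 136 kept their direction and 4 reversed, all without 1 array. The block, the eBayes trend and the filter cannot change a difference, so their values repeat the main ones. Those of the block with quantile normalization likewise repeat quantile normalization. The 140 are thus not separate checks of direction. Gas1 1448494_at ran from -1.34 to 0.53 (0.24 without control replicate 1, 0.53 without LIN28A replicate 2), Gas1 1456322_at from -1.06 to 0.52 (0.52 without control replicate 1) and Ptch1 1428853_at from -0.30 to 0.70. Such fits have unequal numbers in the lines, so part of the difference between numbers enters them. The low intensity of Shh, Gli1, Hhip, Gli3 and Cdon, with no detection calls, limits what can be said of them.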
